A study of Homo sapiens with 15 samples.

Results

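The genes described here are the 3 receptors EGFR, ERBB2 and ERBB3 and the 7 ligands TGFA, AREG, EREG, HBEGF, BTC, NRG1 and EPGN of the epidermal growth factor receptor family. They were taken by name, through their Entrez numbers, from a count table of 28395 genes, and all 10 were among the 16740 genes with enough counts to be tested. RNA was sequenced from BEAS-2B, an immortalised human bronchial epithelial cell line grown in serum-containing medium. Exposed cells received 50 µg/mL of nanoplastics made from polyethylene terephthalate water bottles (PET-NPLs). In the long-term exposures the particles were renewed every few days with the medium. The passage-matched controls were the same line carried in parallel without particles. Each arm had 2 samples at 24 h and 2 at 15 weeks. At 30 weeks the control arm had 3 samples and the exposed arm 4. By their labels the earlier 2 times belong to batch 1 and the last time to batch 2, so time and batch cannot be told apart in any step from 15 to 30 weeks. Nothing in the labels says that replicates came from separate cultures, so the p-values measure only the spread between these samples, which may be technical.

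The family is a signalling system of the cell surface. A ligand that binds its receptor makes receptors pair, and the paired kinases then switch on the ERK and PI3K pathways that drive growth, survival and migration. EGFR is the main receptor of epithelium, ERBB2 has no ligand of its own and serves as the preferred partner of the others, and ERBB3 binds neuregulins but has a weak kinase and signals through its partner. The ligands are made as membrane-anchored precursors that metalloproteases cut free. TGFA, AREG and EPGN bind EGFR, HBEGF, BTC and EREG bind EGFR and also ERBB4, and NRG1 binds ERBB3 and ERBB4. In airway epithelium, ligands released by the cells themselves act on the same or neighbouring cells during wound repair.

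On the GRCh38.p14 assembly, EGFR (Entrez 1956) is at chr7:55019017-55211628, ERBB2 (2064) at chr17:39688094-39728658 and ERBB3 (2065) at chr12:56080108-56103505, all on the plus strand. TGFA (7039) is at chr2:70447284-70553826 and HBEGF (1839) at chr5:140332843-140346603, both on the minus strand, and the position of NRG1 is given with its levels. The other 4 ligands are neighbours. EPGN (255324, chr4:74308470-74316789), EREG (2069, chr4:74365145-74388749), AREG (374, chr4:74445136-74455005) and BTC (685, chr4:74744759-74794523) lie within 486 kb of chromosome 4, and no other protein-coding gene is annotated in that span. The first 3 are on the plus strand and BTC is on the minus strand.

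The 3 plus-strand neighbours are the members whose levels fell furthest between 24 h and 15 weeks in exposed cells, so the 250 bases before each start are shown for comparison (RefSeq, GRCh38.p14, plus strand, at chr4:74308220-74308469, chr4:74364895-74365144 and chr4:74444886-74445135). In controls the fall of EPGN in that step did not pass the test, and BTC, the neighbour on the minus strand, rose without passing it. Capitals mark matches, on either strand, to any of 5 short motifs that do not overlap each other in these windows. They were the AP-1, CRE, GC box, TEAD and TATA box motifs, whose letters follow the sequences.
EPGN: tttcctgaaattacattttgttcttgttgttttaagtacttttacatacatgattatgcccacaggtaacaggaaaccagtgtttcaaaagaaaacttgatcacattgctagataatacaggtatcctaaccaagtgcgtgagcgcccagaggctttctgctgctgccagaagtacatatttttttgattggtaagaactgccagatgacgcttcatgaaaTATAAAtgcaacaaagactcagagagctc
EREG: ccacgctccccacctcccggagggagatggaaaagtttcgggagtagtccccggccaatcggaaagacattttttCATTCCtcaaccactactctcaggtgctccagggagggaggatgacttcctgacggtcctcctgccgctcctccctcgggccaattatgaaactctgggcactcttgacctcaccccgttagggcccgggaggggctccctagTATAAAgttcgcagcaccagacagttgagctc
AREG: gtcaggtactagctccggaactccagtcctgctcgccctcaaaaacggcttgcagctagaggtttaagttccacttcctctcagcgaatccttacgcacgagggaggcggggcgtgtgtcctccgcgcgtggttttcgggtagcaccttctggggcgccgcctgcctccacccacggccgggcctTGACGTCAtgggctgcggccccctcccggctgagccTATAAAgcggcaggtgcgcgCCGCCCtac
The TATA box was searched as TATAAA, which 11.4% of 27305 promoters of this length hold. Each of the 3 genes has a single match, which starts 29 bases before the annotated start of EPGN, 32 before that of EREG and 29 before that of AREG. The TEAD motif was searched as GGAATG and is held by 12.1% of promoters. EREG has 1 match to it, on the opposite strand, EGFR also has 1, and EPGN and AREG have none. The CRE, the site that cyclic AMP-responsive factors are known to recognise, was searched as TGACGTCA and is held by 1.73% of promoters, AREG among them. The GC box was searched as GGGCGG and is held by 41.3% of promoters, and AREG has 1 on the opposite strand. The AP-1 motif was searched as TGANTCA and is held by 6.84% of promoters. It was in none of the 3 ligands shown, and of the 8 members in the promoter table it was found in EGFR and ERBB2. TGFA and BTC had none of the 5 motifs in this window, and HBEGF had 5 GC boxes. These are matches of letters and say nothing of which factors were bound.

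Sequencing gave between 23143202 and 31459990 counts per sample, with a median of 28605451. Levels below are CPM, with library totals scaled by edgeR's TMM factors. The 6 most abundant small noncoding RNAs took 9.75% to 12.9% of counts at 24 h and 15 weeks, 22.3% to 31.0% in the 30-week controls and 17.0% to 21.5% in the 30-week exposed samples. Markers of the line moved as well. The summed level of 10 airway epithelial markers was 1005 to 1126 CPM in the 24 h controls. At 30 weeks it was 318 to 413 CPM in controls and 902 to 1115 CPM in exposed cells. Most of each sum was KRT8 and KRT18. Mean KRT17 was 152 CPM in the 24 h controls and 0.703 CPM in the 30-week exposed cells. For DSP these means were 87.1 and 24.1 CPM. At 30 weeks the means of KRT8, KRT18, KRT17, KRT19 and DSP were higher in exposed cells than in controls. Those of CDH1 (0.56 against 0.62 CPM) and EPCAM (0.15 against 0.18 CPM) were not. The basal markers KRT5, KRT14 and TP63 were at 0 in both arms at 15 weeks and in exposed cells at 30 weeks. The 12 skeletal muscle markers summed to 339 to 433 CPM in the 30-week controls, where 8 of them reached 1 CPM and MYF5 was at 0, against 32.7 to 44.1 CPM in the 30-week exposed samples. In the earlier groups that sum was between 17.5 and 42.3 CPM. The 10 mesenchymal markers summed to 2368 to 2837 CPM in controls and 1828 to 2113 CPM in exposed cells at 30 weeks. Leukocyte markers (25.6 to 32.2 against 17.0 to 21.1 CPM, with CD3E at 0) and endothelial markers (0.559 to 0.903 against 2.15 to 3.01 CPM) were low. The shifts in these marker sums separate the 30-week arms in the same samples as the ligand differences below. Their part in those differences was not tested. The cells of a type and the RNA per cell cannot be told apart in such bulk samples. Replicate 2 of the exposed 30-week cells stood apart from the other exposed samples of that time (Pearson's r of log2 CPM across genes of 0.976 to 0.981 with them, against 0.991 to 0.992 among the others).

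**Figure D1:**
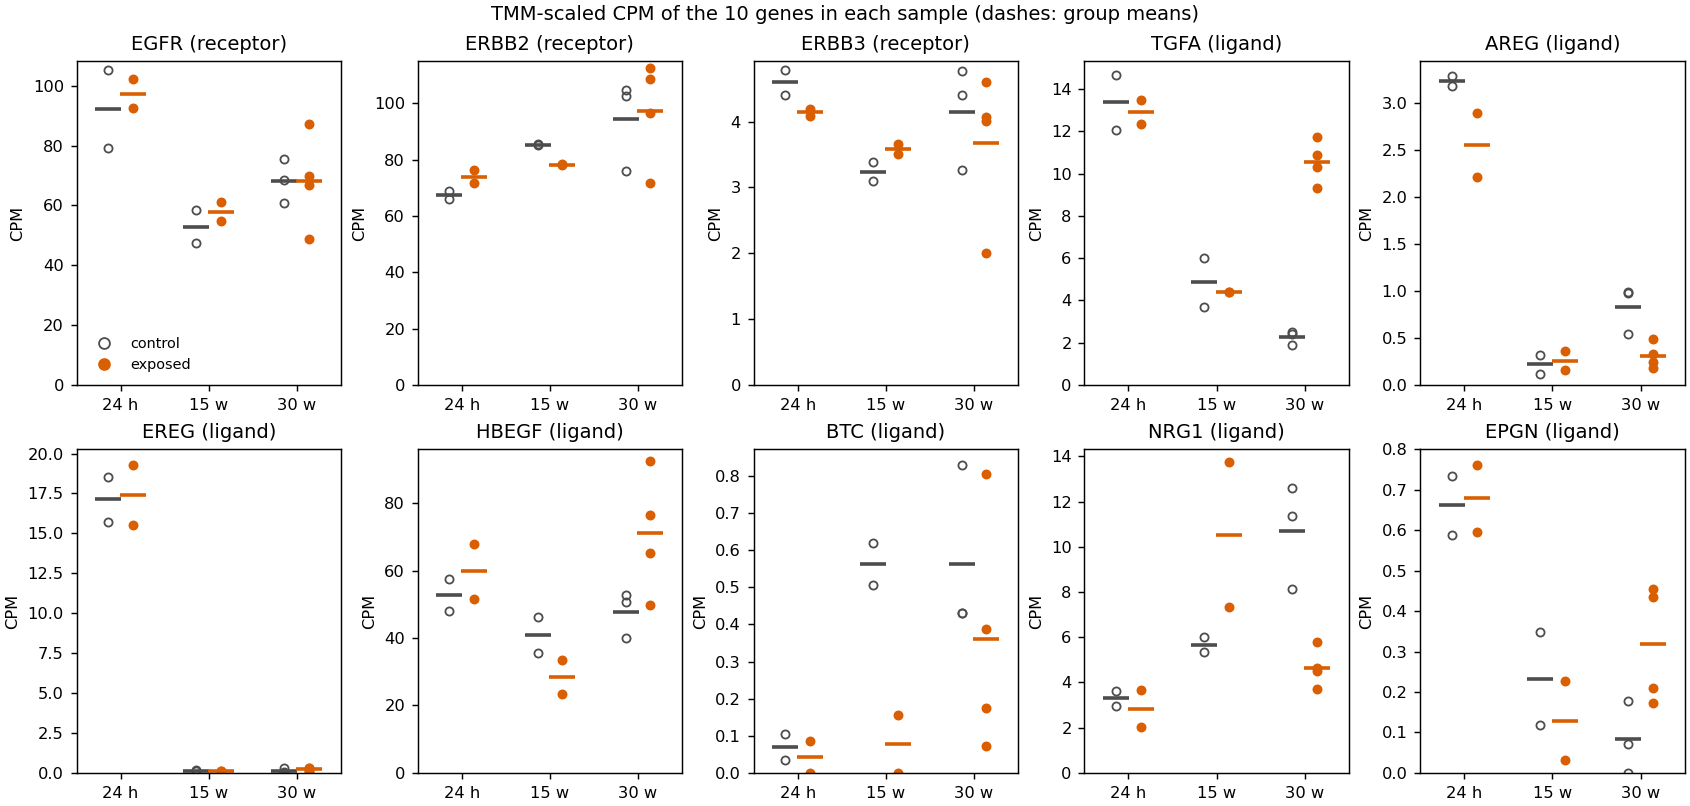
TMM-scaled CPM (linear axis from 0, a different range in each panel) of the 3 receptors and 7 ligands in the 15 samples, with control samples as open and exposed samples as filled circles and group means as dashes. TGFA at 30 weeks lies between 9.33 and 11.7 CPM in exposed and between 1.90 and 2.49 CPM in control samples, while the arms overlap for all 3 receptors at that time.

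No receptor transcript passed the test between exposed and control cells at any time. EGFR was at 105 and 79.3 CPM in the 24 h controls and 92.7 and 102 CPM after 24 h of exposure. At 15 weeks it was at 47.4 and 58.5 CPM in controls and 54.7 and 61.0 CPM in exposed cells. At 30 weeks controls were at 68.7, 60.7 and 75.5 CPM and exposed cells at 87.2, 48.9, 66.8 and 70.0 CPM. The arms overlapped at every time point, and the highest and the lowest 30-week samples were both exposed. In edgeR's quasi-likelihood test the 30-week log2 fold change of EGFR was -0.0017 (standard error 0.167, 95% interval -0.36 to 0.35, adjusted p = 0.996).

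ERBB2 levels were 66.1 and 68.7 CPM in controls and 76.3 and 71.5 CPM in exposed cells at 24 h, and 85.5 and 85.0 against 78.3 and 78.2 CPM at 15 weeks. These arms did not overlap, being higher in exposed cells at 24 h and lower at 15 weeks, as was the case in either direction for 26.0% of all tested genes at 24 h and 45.3% at 15 weeks. The log2 fold change was 0.13 at 24 h (95% interval -0.28 to 0.54) and -0.12 at 15 weeks (95% interval -0.53 to 0.29), both with an adjusted p of 1. At 30 weeks controls were at 103, 75.8 and 105 CPM and exposed cells at 109, 71.6, 96.5 and 113 CPM. The log2 fold change at 30 weeks was 0.045 (standard error 0.148, 95% interval -0.27 to 0.36, adjusted p = 0.866). ERBB3 was the scarce receptor, between 2.00 and 4.78 CPM in all 15 samples, and its lowest value was replicate 2 of the exposed 30-week cells. It was at 4.78 and 4.41 CPM in controls and 4.08 and 4.19 CPM in exposed cells at 24 h, and at 3.38 and 3.10 against 3.50 and 3.67 CPM at 15 weeks, again without overlap. The log2 fold changes were -0.15 at 24 h (95% interval -0.78 to 0.48) and 0.15 at 15 weeks (95% interval -0.49 to 0.78), both with an adjusted p of 1. Its log2 fold change at 30 weeks was -0.18 (standard error 0.230, 95% interval -0.67 to 0.31, adjusted p = 0.620). ERBB4, the remaining receptor of the family, had 1 count in a single sample and was not tested. Reads from EGFR-AS1, and from exons of MIEN1 and PGAP3, overlap EGFR and ERBB2 on the opposite strand. The library kit keeps strand, but whether counting used it is not given in the sources used here.

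At 30 weeks 4 of the 7 ligands differed between exposed and control cells, 2 upregulated (TGFA and HBEGF) and 2 downregulated (NRG1 and AREG). That is 4 of 10 genes of the family, with 23.7% of all tested genes differing in the same comparison. Taken without sign, log2 fold changes had a median of 1.20 over the ligands, 0.045 over the receptors and 0.30 over all genes tested. The ligand median includes AREG, EREG, BTC and EPGN, which were below 1 CPM in every 30-week sample. Their standard errors were 0.410 to 0.831, against 0.148 to 0.230 for the receptors. The samples of the 2 arms did not overlap for TGFA, NRG1 and AREG, which was the case for 27.3% of all tested genes.

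TGFA, which encodes transforming growth factor alpha, an EGFR agonist of many epithelia, differed most in fold among the called members. It was at 2.41, 2.49 and 1.90 CPM in the 30-week controls and at 10.9, 11.7, 10.3 and 9.33 CPM in the exposed samples. Every exposed sample lay above every control sample with a wide gap, and replicate 2 of the exposed cells was the highest of its group. The difference was 4.67-fold (log2 fold change 2.22, standard error 0.182, adjusted p = 3.18e-07). The exposed level was close to that of the 24 h cells, whose controls were at 12.1 and 14.7 CPM and exposed samples at 12.3 and 13.5 CPM. At 15 weeks both arms were lower, at 3.70 and 6.02 CPM in controls and 4.37 and 4.38 CPM in exposed cells. In descending order of the group mean, the 24 h groups overlapped each other, the 30-week exposed cells came next without overlap, then the 15-week arms, which overlapped, and the 30-week controls last.

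HBEGF, a heparin-binding ligand of EGFR, was by far the most abundant ligand transcript. Its 30-week levels were 52.8, 50.5 and 39.9 CPM in controls and 65.3, 92.5, 76.6 and 49.8 CPM in exposed cells. The lowest exposed sample lay below 2 of the 3 controls. The exposed cells were 1.49-fold higher on average (log2 fold change 0.57, standard error 0.195, adjusted p = 0.0451). This call was at the edge of the threshold, and it was lost in 15 of 26 alternative analyses, whose adjusted p ranged up to 0.147. Without exposed replicate 2, the sample with the highest HBEGF, the log2 fold change was 0.42 with an adjusted p of 0.0618.

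NRG1 (Entrez 3084, chr8:31639245-32774046, plus strand), the neuregulin that activates ERBB3, was downregulated. The 30-week controls were at 12.6, 11.4 and 8.12 CPM and the exposed samples at 4.49, 5.78, 4.66 and 3.70 CPM, with no overlap. The exposed level was 2.29-fold lower (log2 fold change -1.20, standard error 0.240, adjusted p = 0.00169), and the call was kept in all 26 alternatives. At 15 weeks the order was the other way round. Controls were then at 5.34 and 6.02 CPM and exposed samples at 7.32 and 13.7 CPM, a log2 fold change of 0.89 that did not pass the test across all genes (standard error 0.309, unadjusted p = 0.0113, adjusted p = 0.873). At 24 h the arms overlapped, at 2.98 and 3.60 against 3.66 and 2.02 CPM. An annotated lncRNA overlaps NRG1 on the same strand, and its reads cannot be separated in the table.

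AREG, amphiregulin, was scarce in long-passaged cells. The 30-week controls had 23, 27 and 15 counts (0.989, 0.975 and 0.537 CPM) and the exposed samples 9, 14, 7 and 5 counts (0.326, 0.491, 0.243 and 0.176 CPM). No exposed sample reached the lowest control, although the highest exposed sample came close to it. The log2 fold change was -1.41 (standard error 0.410, adjusted p = 0.0178), or 2.66-fold lower in exposed cells. Leaving out control replicate 1, control replicate 2 or exposed replicate 4 ended the call, with adjusted p of 0.0772, 0.0633 and 0.0531.

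The other 3 ligands did not pass the test at 30 weeks and were near the limit of detection. EPGN had 0, 2 and 5 counts in controls and 12, 13, 5 and 6 counts in exposed samples (log2 fold change 1.81, standard error 0.831, adjusted p = 0.0963). Without control replicate 3 it passed (adjusted p = 0.0495). EREG had 0, 8 and 1 counts in controls and 9, 9, 3 and 4 in exposed samples (log2 fold change 0.93, standard error 0.711, adjusted p = 0.344). Control replicate 2 decided that value, since without it the adjusted p was 0.0163 and the remaining controls had 1 count between them. BTC had 10, 23 and 12 counts in controls and 2, 23, 5 and 11 in exposed samples (log2 fold change -0.64, standard error 0.657, adjusted p = 0.520), and here exposed replicate 2 matched the highest control. Without that sample the log2 fold change was -1.40 (adjusted p = 0.101), and BTC passed in limma-voom with surrogate variables (log2 fold change -1.87, adjusted p = 0.0238). A count of 3 or fewer per library is taken here as the floor that a count of 0 cannot be told from, for counting error only.

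**Figure D2:**
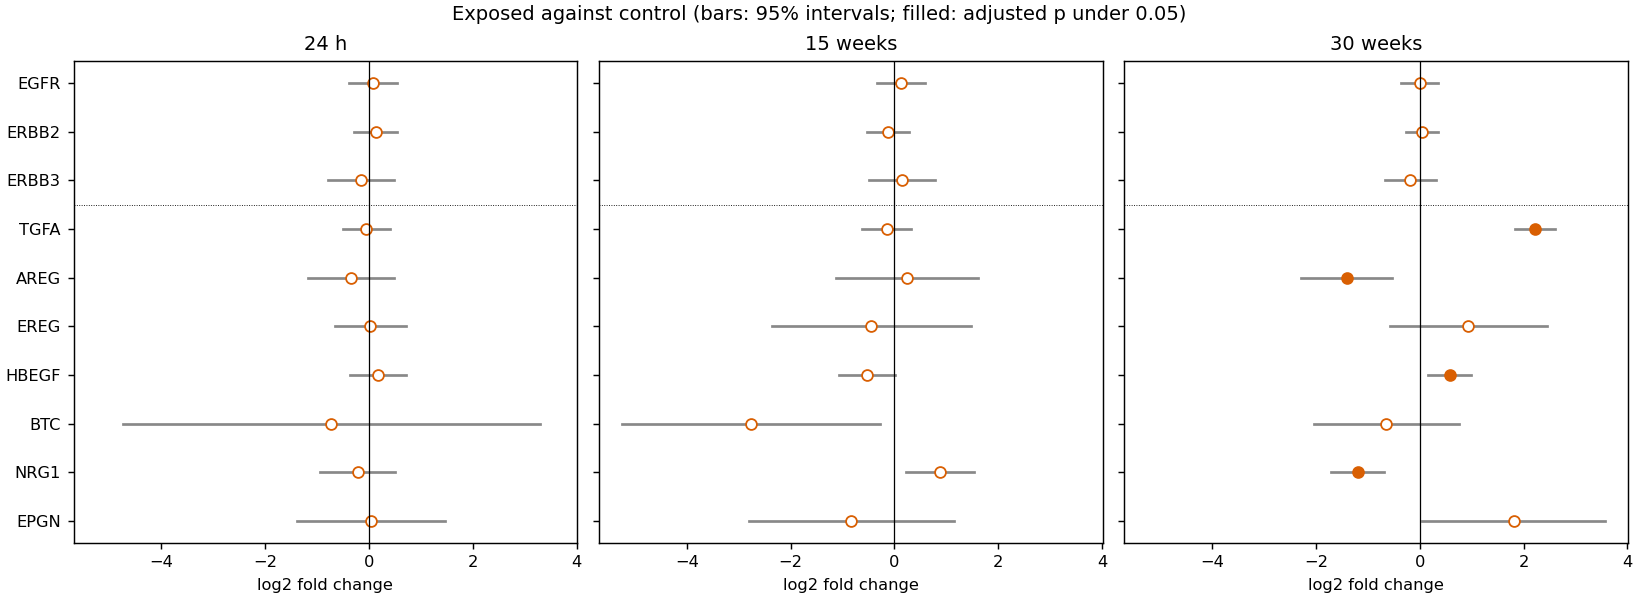
Log2 fold change of exposed against control cells (x axis) for each gene at 24 h, 15 weeks and 30 weeks, with receptors above and ligands below the dotted line, bars for 95% intervals and filled points for adjusted p under 0.05. The filled points are TGFA, AREG, HBEGF and NRG1 at 30 weeks, and the intervals of the low-count ligands BTC, EREG and EPGN are the widest.

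The question of how early the exposure differences arose was addressed at 24 h and 15 weeks. None of the 10 genes was called at either time by edgeR's quasi-likelihood test, nor by DESeq2 or limma-voom, and 0% of all tested genes were called at both times. At an unadjusted p under 0.05 there were 0 members and 277 genes in all at 24 h, and 2 members (NRG1 and BTC) and 823 genes in all at 15 weeks. DESeq2 called 0 genes at 24 h and 18 at 15 weeks. BTC had 16 and 21 counts in the 15-week controls and 5 and 0 counts in the exposed samples (log2 fold change -2.77, standard error 1.17, adjusted p = 0.909). HBEGF was lower in both exposed 15-week samples (33.5 and 23.3 CPM) than in both controls (35.5 and 46.2 CPM), and the log2 fold change was -0.53 (adjusted p = 1, standard error 0.257). When the 15-week samples were fitted alone, NRG1 was the 1 member called (adjusted p = 0.0457), along with 1.96% of all genes in that fit.

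The exposure effect of 2 ligands differed between 15 and 30 weeks. TGFA had no difference that passed the test at 15 weeks (log2 fold change -0.15, standard error 0.225) and 2.22 at 30 weeks, and the difference between the effects was 2.37 (standard error 0.289, adjusted p = 0.000123). For NRG1 the effects were 0.89 and -1.20, and they differed by -2.09 (standard error 0.391, adjusted p = 0.00426). The NRG1 value rested in part on exposed 15-week replicate 2, the sample with the highest NRG1 of all 15, and without it the difference was -1.57 with an adjusted p of 0.0527. HBEGF came close (1.10, standard error 0.323, adjusted p = 0.0698). It passed in 7 of 25 alternatives, among them DESeq2 (adjusted p = 0.0283) and limma-voom with surrogate variables (adjusted p = 0.0178). In this comparison 2 of 10 members and 4.74% of all tested genes were called. Between 24 h and 15 weeks the exposure effect of no member changed past the threshold in edgeR, DESeq2 or limma-voom, and 0% of all genes did. In edgeR's test 1 member, NRG1, was at an unadjusted p under 0.05 there (difference 1.11, standard error 0.462), among 644 such genes in all.

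**Figure D3:**
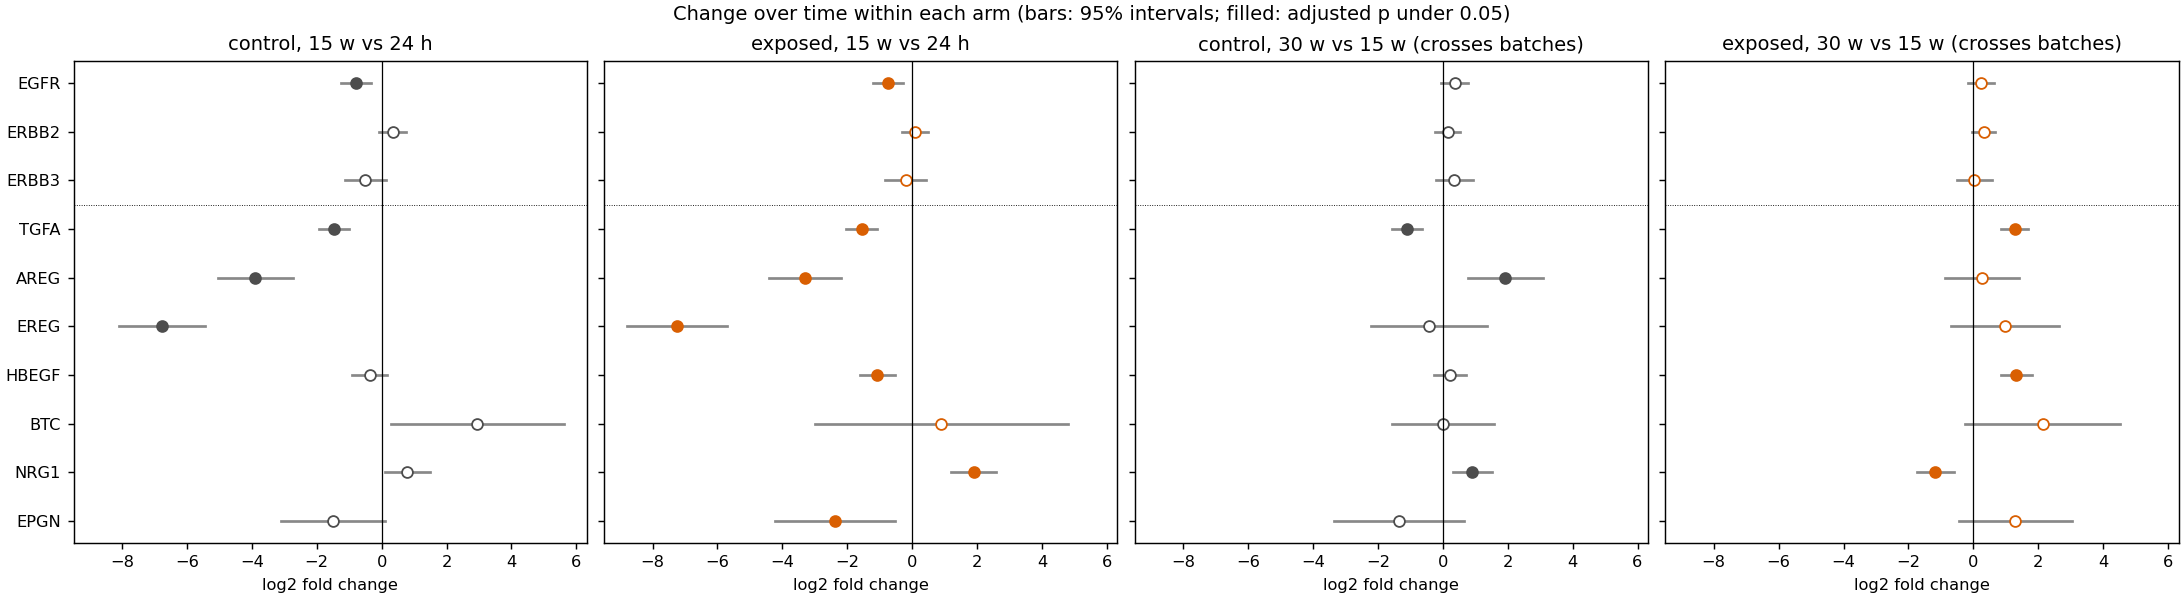
Log2 fold change over time (x axis) of each gene within control (grey) and exposed (orange) cells, from 24 h to 15 weeks and from 15 to 30 weeks, with bars for 95% intervals and filled points for adjusted p under 0.05. EREG and AREG lie far to the left in both arms by 15 weeks, and TGFA lies on opposite sides of 0 in the 2 arms from 15 to 30 weeks.

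EREG and AREG fell in both arms between 24 h and 15 weeks in culture. EREG, epiregulin, almost disappeared. It had 454 and 530 counts in the 24 h controls and 454 and 408 in the 24 h exposed samples (15.5 to 19.3 CPM). At 15 weeks controls had 5 and 5 counts and exposed samples 3 and 4. The fitted fold was 109 in controls (log2 fold change -6.77, standard error 0.630, adjusted p = 8.81e-08) and the log2 fold change in exposed cells was -7.24 (adjusted p = 7.79e-08). EREG stayed at 9 counts or fewer in all 7 samples at 30 weeks. Of the 15 samples, the 4 at 24 h were therefore the only ones with more than 9 EREG counts.

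AREG went from 3.19 and 3.29 CPM to 0.316 and 0.118 CPM in controls (log2 fold change -3.89, standard error 0.539, adjusted p = 3.28e-05). In exposed cells it went from 2.89 and 2.21 CPM to 0.155 and 0.357 CPM (log2 fold change -3.30, adjusted p = 0.000137). TGFA fell by 1.46 on the log2 scale in controls (adjusted p = 0.000146) and by 1.56 in exposed cells (adjusted p = 7.83e-05). EGFR fell by 0.80 in controls (adjusted p = 0.0133) and by 0.75 in exposed cells (adjusted p = 0.0186), and was the receptor that passed the test. Its call in controls was lost without control 24 h replicate 1 or without control 15-week replicate 1, and in exposed cells without any 1 of the 4 samples compared. In all, 4 of 10 members were called in controls, with 24.9% of all tested genes, and all 4 were lower at 15 weeks, as were 12.2% of all genes. BTC rose in controls without passing the test (log2 fold change 2.94, standard error 1.26, adjusted p = 0.0589). It had 1 and 3 counts at 24 h, which is at the floor, and 16 and 21 counts at 15 weeks. This rise passed in 6 of 24 alternatives, DESeq2 among them (adjusted p = 0.0346).

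In exposed cells 7 of 10 members were called in that step, with 26.0% of all tested genes, and 6 of the 7 were lower at 15 weeks, as were 12.5% of all genes. Besides EGFR, TGFA, AREG and EREG, these were HBEGF (log2 fold change -1.07, adjusted p = 0.00601), EPGN (-2.38, adjusted p = 0.0415) and NRG1, which rose (1.90, adjusted p = 0.000517). The HBEGF call was lost without exposed 24 h replicate 2 or exposed 15-week replicate 2. EPGN had 14 and 20 counts at 24 h and 1 and 7 at 15 weeks, and its call was lost in 6 alternatives. In controls HBEGF, EPGN and NRG1 changed by -0.37, -1.50 and 0.79 on the log2 scale without passing the test. The 2 arms were not shown to differ in these genes, since the tests of the difference gave unadjusted p of 0.0692 for HBEGF, 0.446 for EPGN and 0.0292 for NRG1, all with an adjusted p of 1.

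From 15 to 30 weeks, the step that also crosses from batch 1 to batch 2, TGFA and NRG1 moved in opposite directions in the 2 arms. In controls TGFA fell by a further 1.10 on the log2 scale (adjusted p = 0.000504), while AREG rose by 1.93 (adjusted p = 0.0053) and NRG1 by 0.91 (adjusted p = 0.0153). In exposed cells TGFA rose by 1.27 (adjusted p = 0.000129) and HBEGF by 1.32 (adjusted p = 0.000341), while NRG1 fell by 1.17 (adjusted p = 0.00186). That is 3 of 10 members in each arm, with 50.3% of all tested genes called in controls and 46.0% in exposed cells. No receptor passed the test in either arm in edgeR, limma-voom or DESeq2. With 2 surrogate variables added to edgeR, EGFR and ERBB2 rose in exposed cells (log2 fold changes of 0.40 and 0.36, adjusted p = 0.0202 and 0.0222). Without surrogate variables and without exposed 30-week replicate 2, both also rose in exposed cells (log2 fold changes of 0.37 and 0.44, adjusted p = 0.0442 and 0.00779), and EGFR rose in controls (log2 fold change 0.37, adjusted p = 0.043). The AREG call in controls was lost without control 15-week replicate 2 (adjusted p = 0.0859), the NRG1 call in controls without control 15-week replicate 1 or 2 or control 30-week replicate 1, and the NRG1 call in exposed cells without exposed 15-week replicate 2 (adjusted p = 0.116).

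To compare levels between genes, CPM were divided by the length of each gene's annotated exons in kilobases. On this per-length scale HBEGF made up 68.2% to 76.1% of the summed ligand level at 24 h in the 4 samples and 80.9% to 91.0% in the 11 later samples. At 24 h EREG contributed 9.13% to 13.4%, TGFA 9.20% to 10.7% and AREG 4.51% to 8.25%. By 15 weeks EREG was at 0.129% to 0.236% and never rose above 0.267% at 30 weeks. At 30 weeks TGFA supplied 2.51% to 2.68% of the sum in controls and 6.94% to 9.95% in exposed cells, NRG1 2.59% to 3.03% against 0.773% to 0.907%, and AREG 2.23% to 3.14% against 0.526% to 0.869%, with no overlap between the arms for any of these. The summed ligand level was 23.5 to 29.8 CPM per kb at 24 h, 9.62 to 17.3 at 15 weeks, 14.7 to 19.5 in the 30-week controls and 19.1 to 34.4 in the 30-week exposed cells, so the arms overlapped at 30 weeks. The summed receptor level stayed between 10.2 and 16.4 CPM per kb in all 15 samples. EGFR was at 0.747 to 1.03 of the ERBB2 level per length at 24 h and at 0.359 to 0.520 in all later samples of either arm. These shares depend on the exon lengths used, which for NRG1 join many long alternative exons.

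**Figure D4:**
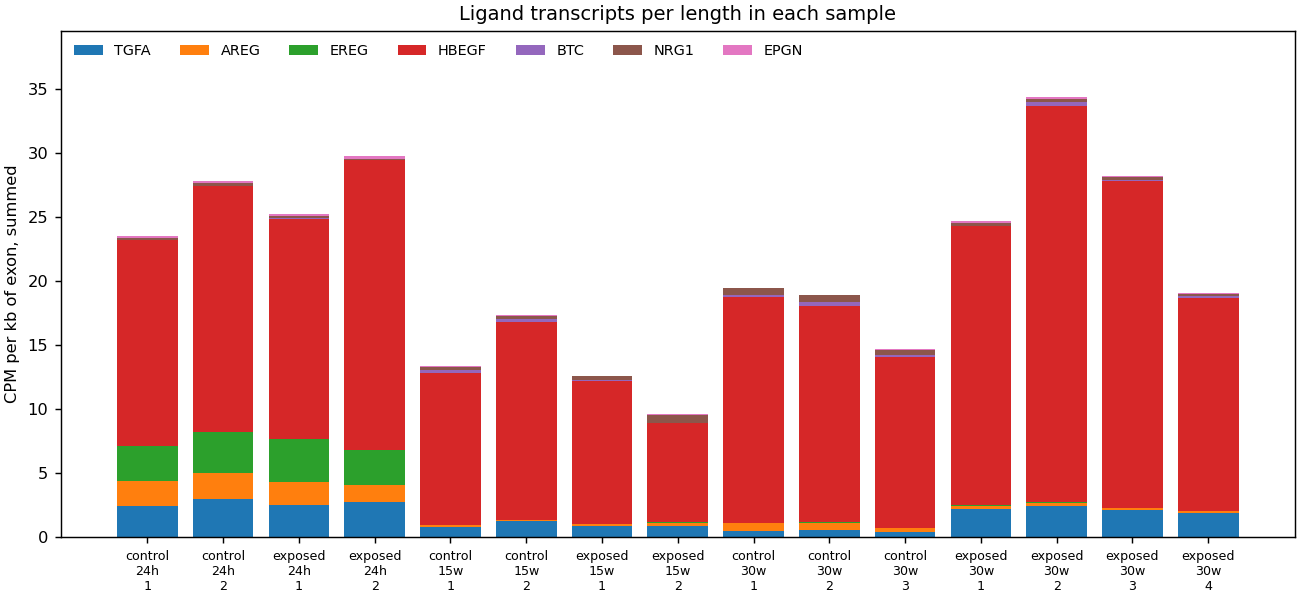
Ligand level in CPM per kb of annotated exon (y axis, linear from 0), stacked by gene, in each of the 15 samples. HBEGF fills most of every bar, EREG and AREG are visible at 24 h in all 4 samples, and TGFA is a larger band in the 4 exposed than in the 3 control samples at 30 weeks.

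Of the other ligands of the family, EGF itself stayed at 23 counts or fewer in every sample and did not pass the exposure test at any time. NRG2, a second neuregulin, was higher in exposed cells at 30 weeks, at 2.91 ± 0.561 CPM (SD, n = 4) against 1.56 ± 0.214 CPM (n = 3), and the log2 fold change was 0.90 (adjusted p = 0.00605, standard error 0.213). It thus went the other way from NRG1. NRG4 did not pass (log2 fold change 0.39, standard error 0.395, adjusted p = 0.519), and NRG3 had no counts in any sample, which allows up to 3 counts per library.

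Further genes of the pathway were taken from 5 lists that hold 77 genes, 74 of which were tested. At 30 weeks 10 of these were higher and 8 lower in exposed cells, that is 18 of 74 beside 23.7% of all tested genes, and their median log2 fold change was 0.07 beside 0.0078 over all genes. At 24 h and 15 weeks edgeR called none of them, with 0 and 4 at an unadjusted p under 0.05.

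Among 11 genes of ligand shedding, 2 were higher and 3 lower at 30 weeks, with 23.7% of all tested genes called in either direction. The main sheddase of TGFA and AREG, ADAM17, was at 46.4 ± 5.72 CPM in exposed cells and 46.1 ± 5.12 CPM in controls (adjusted p = 0.963). ADAM10, a sheddase of other family ligands, was higher by 0.40 on the log2 scale (adjusted p = 0.0298), and ADAM15 by 0.58 (adjusted p = 0.0013). TIMP3, a secreted inhibitor of ADAM17 and other metalloproteases, was lower, at 15.0 ± 2.18 CPM against 39.4 ± 7.43 CPM (log2 fold change -1.39, standard error 0.173, adjusted p = 2.15e-05). ADAM19, which can cut neuregulin, was lower too (log2 fold change -0.90, adjusted p = 0.00031), as was ADAM12 (-0.49, adjusted p = 0.0343).

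Of 28 tested adaptors and kinases 3 were higher and 1 was lower, with 23.7% of all tested genes called in either direction. The log2 fold change was 0.67 for the transcription factor STAT5B (adjusted p = 0.00149), 0.42 for the PI3K regulatory subunit PIK3R1 (adjusted p = 0.0175) and 0.60 for the phospholipase PLCG1 (adjusted p = 0.0379, with overlapping arms). For the docking protein GAB2 it was -0.57 (adjusted p = 0.0457). Of the 20 negative regulators, 2 were higher and 2 lower, beside the same share of all tested genes. LRIG1, a membrane protein that promotes loss of the receptors, was at 49.3 ± 5.24 CPM in exposed cells and 114 ± 12.4 CPM in controls (log2 fold change -1.21, standard error 0.118, adjusted p = 1.43e-06). ERRFI1, an inducible inhibitor of the EGFR kinase, was lower (log2 fold change -0.44, adjusted p = 0.0191). DUSP4, a phosphatase of ERK that ERK signalling itself induces, was at 26.0 ± 4.18 CPM against 10.5 ± 1.35 CPM (log2 fold change 1.31, standard error 0.144, adjusted p = 8.63e-06), and LRIG3 was higher by 0.38 (adjusted p = 0.0333).

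The 19 transcripts known to respond to ERK signalling, 7 of them also on the list of negative regulators, went both ways, with 3 higher and 2 lower and a median log2 fold change of -0.12. Of all tested genes 23.7% were called in the same comparison. DUSP4 (above), UPP1 (0.73, adjusted p = 0.000429) and EPHA4 (0.68, adjusted p = 0.00375) were higher. CCND1, the cyclin D1 gene, was at 24.6 ± 10.8 CPM in exposed cells and 63.1 ± 12.7 CPM in controls (log2 fold change -1.36, standard error 0.255, adjusted p = 0.00106), and the cytokine LIF was lower too (-1.16 on the log2 scale, adjusted p = 0.00209). The muscle and epithelial marker sums given above separate the same samples, and their part in these values was not tested.

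**Figure D5:**
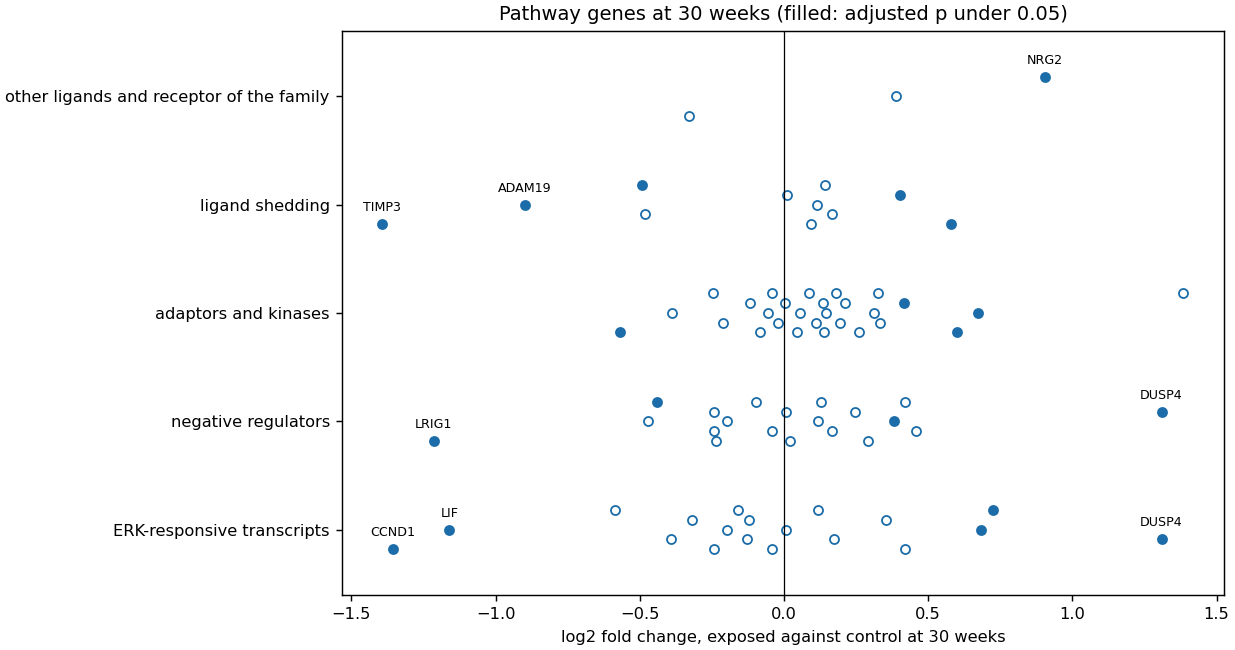
Log2 fold change of exposed against control cells at 30 weeks (x axis) for the tested genes of the 5 pathway lists (rows, vertical scatter for legibility only), filled where the adjusted p was under 0.05. Filled points lie on both sides of 0 in every list that has more than 3 tested genes, and TIMP3, LRIG1, CCND1, LIF and DUSP4 lie farthest out among them.

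For each of the 4 ligands called at 30 weeks, the genes with the most similar profile were looked up by Pearson's r of log2 CPM over the 15 samples, among 13370 genes with a mean of at least 1 CPM. The samples fall into 6 conditions and share batches, so r describes the profile and has no p. TGFA was most like POGK (r = 0.964), DLC1 (0.961) and PODXL (0.958), the last at 197 CPM in controls at 24 h, 63.9 CPM in controls at 30 weeks and 196 CPM in exposed cells at 30 weeks. AREG was most like HMOX1 (0.960), S100A2 (0.957) and LDHA (0.953), and NRG1 like LINC01583 (0.938), TSPAN2 (0.899) and DDAH1 (0.891). HBEGF had less similar neighbours, DYRK4 (0.913), DUSP23 (0.898) and NOP2 (0.865).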

How the data were processed

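Total RNA from 15 BEAS-2B samples was sequenced from TruSeq stranded, ribosomal RNA-depleted libraries. Per the study's methods and the submitters' processing notes, the authors trimmed reads with Rfastp, mapped them to the human genome (hg38) and counted reads per gene with Rsubread's featureCounts; the deposited table holds raw, unnormalised counts per Entrez gene. Versions and the strand setting are not given in the sources used here. Counts were used as deposited. Entrez numbers were paired with symbols through the RefSeq gene table, and exon lengths came from GENCODE. Library totals are given in the report; they set the precision, and counts cover counting error only.

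Genes were filtered with filterByExpr (16740 of 28395 kept) and scaled by TMM. The main test was edgeR 4.0.16's quasi-likelihood test over all 15 samples with 1 mean per condition and Benjamini-Hochberg adjustment over all tested genes (threshold 0.05), and 9 contrasts were taken. Standard errors and 95% intervals are Wald values from that fit. The study tested with limma-voom and surrogate variables, which was run as an alternative (limma 3.58.1, sva 3.50.0, 2 surrogate variables), as were DESeq2 1.42.0, other scalings and filters, each time point alone, a replicate block and leaving out each sample. Scripts were tested on simulated counts. Besides the 10 family genes, the text names, from each pathway list, the called genes of lowest p at 30 weeks, up to 3 in each direction, all genes of the list of other family ligands and ERBB4, and the 3 genes most like each member called between exposed and control cells at any time point. ADAM17 was named outside this rule, after its values were seen. The members and lists were chosen with earlier results of these data known. Deviations from the group means correlated between same-numbered control and exposed replicates at -0.06 at 24 h and 0.029 at 15 weeks. At 30 weeks the correlations were -0.118, 0.303 and 0.0981. Samples were not paired by number in the main test. With 2 samples per arm the check gives 1 value apart from its sign, so it cannot exclude pairing at 24 h or 15 weeks.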

Additional observations from a re-analysis of the deposited data

Results flagged for a closer look

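The exposure effect differed between 15 and 30 weeks, by the test of the difference itself, in 6 of the genes named in the report. They are 2 of 10 family genes and 4 of 74 tested pathway genes, with 4.74% of all tested genes called. The 4 pathway genes were named because they were called at 30 weeks, which is 1 part of this difference. Their calls here are therefore not independent of that choice. The log2 difference, 30 weeks minus 15 weeks, was 2.37 for TGFA, -2.09 for NRG1, -1.39 for TIMP3, -0.98 for LRIG1, 1.31 for DUSP4 and 0.76 for UPP1. For these 6 genes the time step is also the step from batch 1 to batch 2, and within each batch only 1 of the 2 effects can be had. The control arm itself moved in this step. TIMP3 rose by 1.37 and LRIG1 by 1.38 on the log2 scale in controls, while TGFA fell by 1.10 and DUSP4 by 0.97. No sample of the exposed 30-week cells, the one group with 4 samples, lay farther from its neighbours than Dixon's 95% limit of 0.829 for any of the 10 family genes. The nearest was ERBB3 in replicate 2, with a ratio of 0.775. Groups of 2 or 3 samples were not tested in this way.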

How the results depend on the processing

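There were 28 alternative settings, 15 of which leave out 1 sample. As 2 of them alter the call rule alone and others could not give every value, each fold change of a family gene had 24 to 26 alternatives. The 23 called changes of the 10 family genes gave 572 recomputed values, of which 530 stayed past the threshold with the same sign, 42 kept the sign without passing, and none changed sign; 13 of the 23 passed under every setting. The 67 changes that were not called gave 1667, of which 34 passed and 74 changed sign. In all, 255 of 274 recomputed counts stayed within 1.5 times the value reported. The cause of the changes below was not tested, except that a filter of at least 10 counts in every sample removed AREG, EREG, BTC and EPGN from testing. Under that filter 2 family genes were called at 30 weeks (4 reported), 2 from 24 h to 15 weeks in controls (4) and 4 in exposed cells (7). With an adjusted p under 0.01, 2 family genes (4) and 11 pathway genes (18) were called at 30 weeks. Requiring also a 2-fold change left 5 pathway genes. With each time point fitted alone, 1 family gene was called at 15 weeks (0 reported), with 1.96% of all genes (0%), and 11 pathway genes at 30 weeks, with 15.3% of all genes (23.7%).

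With 2 surrogate variables, limma-voom and edgeR each called 8 family genes from 24 h to 15 weeks in controls (4 reported), where 39.1% and 39.3% of all genes were called (24.9%). The added genes were ERBB2, BTC and NRG1, which rose, and EPGN, which fell. Both methods called 5 family genes from 15 to 30 weeks in exposed cells (3 reported), with 51.4% of all genes (46.0%), and limma-voom called 1 in controls (3), with 43.2% of all genes (50.3%). The following signs changed, with limma-voom first and edgeR second, all in log2 units. For exposed against control at 24 h EREG gave -0.40 and -0.44 and EPGN -0.36 and -0.34, and at 30 weeks EGFR gave 0.16 and 0.17. For the change in effect from 24 h to 15 weeks EGFR gave -0.025 and -0.024 and EREG 0.057 and 0.057, and from 15 to 30 weeks EGFR gave 0.088 and 0.10. From 15 to 30 weeks in controls ERBB2 gave -0.078 and -0.067 and EREG 0.57 and 1.07, with EPGN at 0.15 in limma-voom alone, and in exposed cells AREG gave -0.16 and -0.30. EGFR at 30 weeks, reported at -0.0017, was 0.0022 with DESeq2, 0.0049 without a filter and 0.0021 with median-ratio size factors. In limma-voom without surrogate variables BTC in controls (-0.042) and ERBB3 in exposed cells (-0.035) changed sign from 15 to 30 weeks, and so did BTC in controls without the 6 small noncoding RNAs (-0.016).

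A replicate block was fitted although pairing by number was not shown. It gave 3 called family genes at 30 weeks (4 reported) and 3190 genes in all (3961). It ended the AREG call at 30 weeks and the EPGN call in exposed cells. It also changed the sign of ERBB2 at 30 weeks (-0.033) and of ERBB3 from 15 to 30 weeks in exposed cells (-0.10). Not every 30-week sample correlated best with its own number, since control replicates 1 and 3 did not.

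Leaving out 1 sample gave 2 to 4 called family genes at 30 weeks, with 2 without control replicate 1, and 1 to 3 for the change in effect from 15 to 30 weeks, with 1 without exposed 15-week replicate 2. From 24 h to 15 weeks in exposed cells it gave 4 to 7, with 4 without exposed 24 h replicate 2. From 15 to 30 weeks it gave 1 to 4 in controls, with 1 without control 15-week replicate 2, and 2 to 5 in exposed cells, with 5 without exposed 30-week replicate 2. Pathway genes at 30 weeks ranged from 11, without control replicate 1, to 27, without exposed replicate 2, when 34.2% of all genes were called. Where a lone sample was left, its spread was taken from the other groups. The following ranges cross 0 and belong to changes that were not called. At 24 h they were EGFR -0.12 to 0.29, TGFA -0.19 to 0.099, EREG -0.15 to 0.17, HBEGF -0.031 to 0.36, BTC -4.10 to 0.27, NRG1 -0.71 to 0.15 and EPGN -0.15 to 0.21. At 15 weeks they were EGFR -0.011 to 0.29, TGFA -0.45 to 0.24, AREG -0.45 to 1.09 and EPGN -2.73 to 0.11, and at 30 weeks EGFR -0.14 to 0.13, ERBB2 -0.092 to 0.17 and ERBB3 -0.31 to 0.022. For the change in effect from 24 h to 15 weeks they were EGFR -0.16 to 0.25, TGFA -0.40 to 0.29, AREG -0.11 to 1.43, BTC -6.28 to 1.33 and EPGN -2.76 to 0.076, and from 15 to 30 weeks EGFR -0.29 to 0.010. From 24 h to 15 weeks in exposed cells BTC ranged from -3.34 to 4.27. From 15 to 30 weeks in controls EREG ranged from -2.72 to 0.077 and BTC from -0.39 to 0.17, and in exposed cells ERBB3 from -0.093 to 0.24 and AREG from -0.21 to 0.97. No scaling moved the median of all genes by more than 0.1. Depth limits EREG, AREG, BTC and EPGN, which had under 30 counts in every sample after 24 h.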
